A study of Bos taurus with 12 samples.

Results

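The genes that build and load the major histocompatibility complex (MHC) were followed in cattle blastocysts and in conceptuses about to elongate. The members were all probe sets whose only gene symbol was BOLA, BOLA-DRA, B2M, TAP1, TAPBP, PSMB8, PSMB9 or CD74, with BOLA-NC1 and JSP.1 added. There were 9 such probe sets, of 24016 tested on the array, and they covered 7 of the 10 genes. B2M had 3 probe sets, and BOLA, BOLA-DRA, TAP1, TAPBP, PSMB8 and PSMB9 had 1 each. No probe set carried CD74, BOLA-NC1 or JSP.1 as its only symbol.

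MHC class I molecules consist of a polymorphic heavy chain, named BoLA in cattle, held by the light chain beta-2-microglobulin (B2M). They show peptides that the proteasome cuts in the cytosol, that the TAP transporter carries into the endoplasmic reticulum and that tapasin (TAPBP) helps to load, whereas class II molecules are chaperoned by CD74 and carry peptides from endosomes, mainly in immune cells. Trophoblast, the outer layer of the embryo that meets the uterus, is known in many mammals for restricted MHC levels.

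Each array measured RNA from 1 pool of embryos, with 3 arrays labelled as biological replicates in each of 4 groups. The groups were Day 13 conceptuses grown from blastocysts produced in vitro by IVF, Day 13 conceptuses grown from blastocysts produced in vivo by superovulation, Day 7 blastocysts made in vitro and Day 7 blastocysts made in vivo. A Day 13 pool held 5 conceptuses and a Day 7 pool held 25 blastocysts. All Day 13 conceptuses, of either origin, had spent the days after transfer in synchronized heifers that received 10 blastocysts each, so the in vitro label covers only the time to Day 7. The labels give neither breed nor sex, name whole embryos without dissection, and give 75 ng of total RNA per array, amplified in a pair of cycles. In such pools, fewer cells of a type and less RNA per cell cannot be told apart.

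All levels below are deposited log2 intensities, and a difference of 1 is a doubling. Background was set at 3.39, below which 99% of the values of 49 negative control probe sets fell, and the lowest value in the table was 2.23. Of the lineage markers, 9 of 9 measured trophoblast genes and 6 of 8 hypoblast genes exceeded background on at least 3 arrays, RBP4 being the hypoblast marker at background throughout. Of 17 measured leukocyte markers, 13 were at background on every array, among them PTPRC, CD3E, CD14, CD68, ITGAM and CD79A, and only CD8A and CD52 exceeded it on at least 3. The summed linear signal of the leukocyte list was 105.5 to 120.8 in Day 13 in vitro pools, 104.8 to 119.8 in Day 13 in vivo pools, 101.7 to 109.5 in Day 7 in vitro pools and 102.2 to 127.5 in Day 7 in vivo pools. Of 13 endometrial markers, 8 were at background on every array, PGR and ESR1 included. The poly-A spike-ins, RNAs added before labelling, set some arrays of Day 13 in vitro conceptuses apart. Their mean was 9.27, 10.50 and 12.99 in replicates 1, 2 and 3 of that group, against 13.34 to 14.96 on the other 9 arrays. The 3′ minus 5′ log2 signal of the GAPDH controls, a measure of RNA length, was 2.53 to 4.17 in Day 13 in vitro, 2.85 to 4.62 in Day 13 in vivo, 3.40 to 4.19 in Day 7 in vitro and 5.58 to 5.65 in Day 7 in vivo pools. Its part in the results was not tested.

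Probe sets of several class I components exceeded background in every pool, while those of BOLA-DRA, TAPBP and PSMB8 stayed at background. The 6 probe sets of BOLA, B2M, TAP1 and PSMB9 were above background on all 12 arrays. The probe sets of BOLA-DRA, a class II alpha chain, of TAPBP (tapasin) and of PSMB8, an inducible proteasome subunit, were at background on all 12, with a highest value of 2.24. BOLA-DRA and PSMB8 stood at the table's lowest value of 2.23 on each array. A probe set at background gives only an upper limit on that probe set's signal, so the absence of the transcript was not shown. Nor does a level above this single cut show the transcript in each pool. A class I probe set described below stood at 6.05 on 11 of the 12 arrays.

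**Figure D1:**
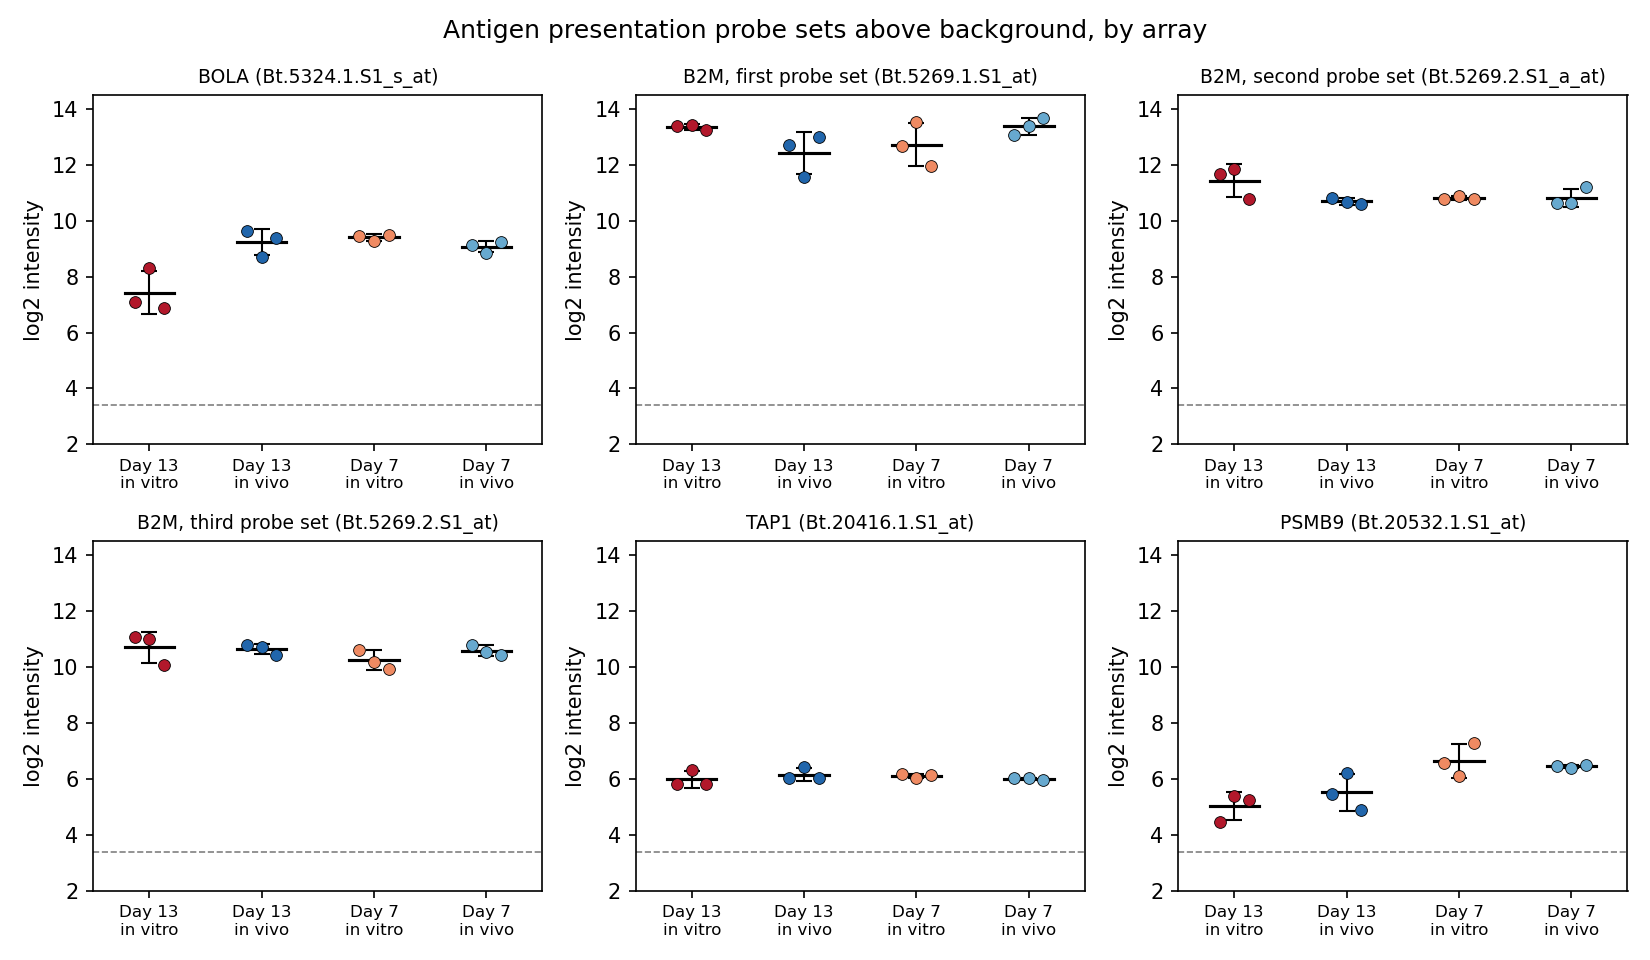
Deposited log2 intensity (vertical axis) of the 6 member probe sets above background, in the 4 groups, with 1 point per array, a line at each group mean, whiskers of 1 SD (n = 3) and a dashed line at the background of 3.39. BOLA is lowest on the 3 arrays of Day 13 in vitro conceptuses, between 6.87 and 8.30, and PSMB9 is lower on Day 13 than on Day 7 arrays of the same origin.

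Of the members, the single probe set of BOLA, a class I heavy chain, gave the clearest contrast between the groups. Class I probe sets outside the members, described below, did not all share it. At Day 13, in vitro minus in vivo was 0.10 ± 0.74 (SE) for the one with the highest median. It was -0.28 ± 0.45, without overlap, for another. BOLA had levels of 7.08, 8.30 and 6.87 in Day 13 in vitro conceptuses, and 9.64, 8.71 and 9.38 in Day 13 in vivo conceptuses. Its levels were 9.44, 9.27 and 9.50 in Day 7 in vitro blastocysts and 9.14, 8.84 and 9.24 in Day 7 in vivo blastocysts. The Day 13 in vitro pools were thus the 3 lowest of the 12, and none overlapped with any other group. The group means were 7.41 ± 0.77, 9.24 ± 0.48, 9.40 ± 0.12 and 9.07 ± 0.21 (SD, n = 3) in the same order, and the arrays of the last 3 groups lay within 8.71 to 9.64 of one another. The name of this probe set (suffix _s_at) marks probes shared by several transcripts, and its gene ID in the platform table (790811) has no entry in the RefSeq gene table, so the class I gene or genes behind the signal are not settled.

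Among conceptuses and blastocysts of in vitro origin, BOLA fell by 1.99 ± 0.37 (SE) on the log2 scale at Day 13, a level 3.97-fold lower (limma, adjusted p = 0.0158). The unadjusted 95% interval of this difference ran from -2.85 to -1.13. BOLA was the 1 member of 9 probe sets called in this comparison, in which 7.51% of all probe sets were called, 3.55% as higher and 3.96% as lower at Day 13. With so few members, 1 call cannot be set apart from that share. Omission of 1 array ended the call in 3 cases, with adjusted p of 0.0662 for Day 13 in vitro replicate 1, 0.0613 for Day 7 in vitro replicate 1 and 0.0606 for Day 7 in vitro replicate 3. With the poly-A level as a covariate the difference was -2.24 (adjusted p = 0.223), and without replicates 1 and 2 of the Day 13 in vitro group, which had the least poly-A signal, it was -2.54 ± 0.35 (adjusted p = 0.011). That setting leaves 1 Day 13 in vitro array, which is assumed to vary like the arrays of the other groups, and its p-values have no replicate of that group behind them. Of the Day 13 in vitro arrays, the one with the highest poly-A level, replicate 3, had the lowest BOLA level.

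Among embryos of in vivo origin, BOLA did not pass the test between the days. The difference of Day 13 minus Day 7 was 0.17 ± 0.37, with an interval of -0.69 to 1.02 (limma, adjusted p = 1). It was -0.23 when arrays were centred on their ribosomal protein probe sets, a scaling that moved the median of all probe sets by -0.40 in this comparison, so that no direction is given. No member was called among 9 in this comparison, against 3.79% of all probe sets, 1.7% as higher and 2.09% as lower at Day 13, and 1 member had an unadjusted limma p below 0.05.

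At Day 13, BOLA was 1.83 ± 0.37 lower in conceptuses of in vitro than of in vivo origin, an interval of -2.68 to -0.97, and the groups did not overlap. This missed the threshold (limma, adjusted p = 0.0626). No member passed it, against 1.2% of all probe sets, 0.645% as higher and 0.554% as lower in vitro, and 2 members had an unadjusted limma p below 0.05. The difference was -2.27 without Day 13 in vitro replicate 2 (adjusted p = 0.0131), and -2.37 with replicate 3 as the 1 array of that group (adjusted p = 0.0217, with the spread taken from the other groups). At Day 7, the 3 in vitro blastocyst pools lay above the 3 in vivo pools by 0.33 ± 0.37 (adjusted p = 1), a difference of -0.02 after ribosomal centring. No member was called at Day 7, where 0.208% of all probe sets were, 0.129% as higher and 0.0791% as lower in vitro, and 0 members had an unadjusted limma p below 0.05.

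Whether the day effect on BOLA differed between the origins was tested directly. The in vitro day effect minus the in vivo day effect was -2.16 ± 0.53 (limma, adjusted p = 0.185), which did not pass. No member was called here, against 0.4% of all probe sets, 0.146% as higher and 0.254% as lower, and 2 members had an unadjusted limma p below 0.05. The value passed without Day 13 in vitro replicate 2, at -2.60 (adjusted p = 0.0375), and was -2.70 with replicate 3 as the 1 array of that group (adjusted p = 0.0339, with the spread taken from the other groups).

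Summed marker levels of 2 lists were lowest in the same pools as BOLA. The summed linear signal of the hypoblast markers was 10104 to 18614 in Day 13 in vitro pools, 23454 to 28599 in Day 13 in vivo pools, 24460 to 32235 in Day 7 in vitro pools and 29248 to 42929 in Day 7 in vivo pools. Such a sum follows its brightest genes, here GATA6 and FN1. GATA6, FN1, PDGFRA and COL4A1 had their lowest group mean in Day 13 in vitro pools, but APOE and LAMB1 did not. APOE had a mean of 8.46 there, against 6.75 in Day 7 in vitro and 6.41 in Day 7 in vivo pools. For LAMB1 these means were 10.38, 10.26 and 8.95. Of 8 measured hypoblast genes, 1 was called lower between the days in vitro (GATA6, -1.81 ± 0.42, limma, adjusted p = 0.0365). Another 2 were called higher in vivo (LAMB1, 2.85 ± 0.35, and APOE, 4.05 ± 0.60), and 0 between the origins at either day. Over all 9155 genes, 5.77% were called lower in vitro and 2.7% higher in vivo. Between the origins 0.852% were called higher and 0.786% lower at Day 13, and 0.218% and 0.0765% at Day 7. The sum of the 13 endometrial markers was 85.3 to 109.4 in Day 13 in vitro pools, 139.3 to 384.4 in Day 13 in vivo pools, 232.0 to 428.7 in Day 7 in vitro pools and 252.3 to 337.9 in Day 7 in vivo pools, with 3 of the 13 genes above background on at least 3 arrays. Of them COL1A2, a collagen, was called, at background in Day 13 in vitro pools and at least 16.1-fold lower there than in Day 7 in vitro pools (adjusted p = 0.0129). The 3 genes above background on at least 3 arrays were SPP1, COL1A2 and PDGFRB. Day 7 in vitro blastocysts, which had not been in a uterus, reached the highest endometrial sum, so this list does not mark endometrial cells alone. The part of either marker list in the BOLA result was not tested.

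**Figure D2:**
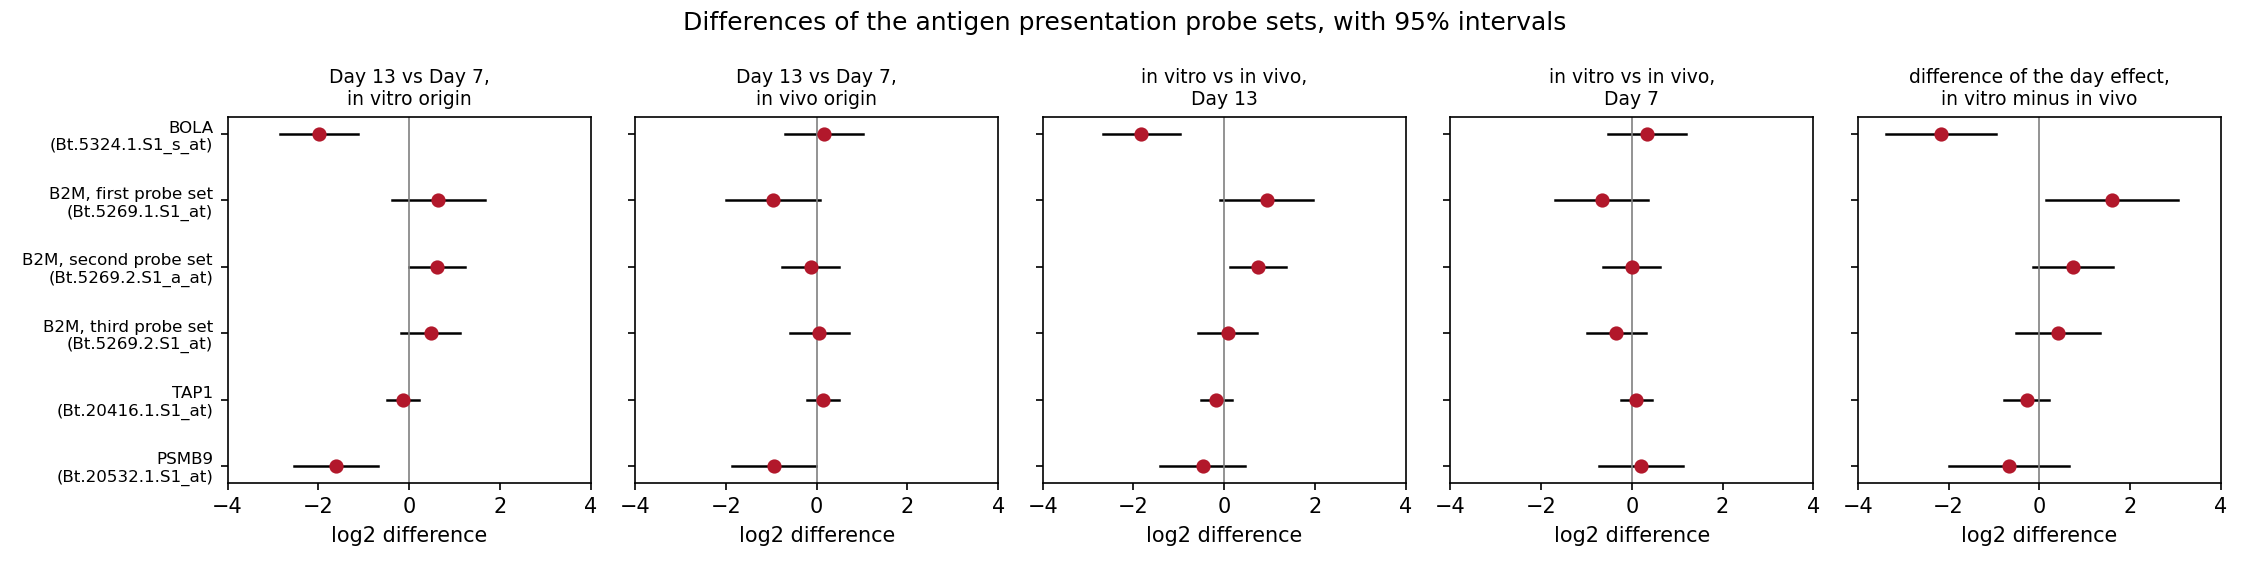
Log2 differences of the 6 member probe sets above background (horizontal axis, first-named group minus second) in the 5 comparisons, with a point for the limma estimate and a bar for its unadjusted 95% interval. The one called difference is that of BOLA between Day 13 and Day 7 embryos of in vitro origin, at -1.99 in the left panel.

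The light chain was bright in every pool and did not follow BOLA. The first B2M probe set had levels of 13.41, 13.44 and 13.25 in Day 13 in vitro conceptuses and 12.72, 11.58 and 12.98 in Day 13 in vivo conceptuses. It had 12.69, 13.52 and 11.97 in Day 7 in vitro blastocysts and 13.08, 13.41 and 13.68 in Day 7 in vivo blastocysts. The Day 13 in vivo pools lay below both the Day 13 in vitro pools and the Day 7 in vivo pools without overlap, by 0.94 ± 0.45 and 0.96 ± 0.45. Neither difference passed the test (limma, adjusted p = 0.365 for in vitro minus in vivo and 0.405 for Day 13 minus Day 7).

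The remaining probe sets of B2M gave another order of the groups. The second had 11.68, 11.86 and 10.77 in Day 13 in vitro conceptuses, 10.82, 10.66 and 10.60 in Day 13 in vivo conceptuses, 10.78, 10.90 and 10.79 in Day 7 in vitro blastocysts and 10.65, 10.63 and 11.20 in Day 7 in vivo blastocysts. Replicates 1 and 2 of the Day 13 in vitro conceptuses, the arrays with the lowest poly-A levels, were its highest 2 values, and replicate 3 lay among the other groups. The difference of Day 13 minus Day 7 in vitro was 0.62 ± 0.27 (limma, adjusted p = 0.265) with all arrays, 0.95 (adjusted p = 0.0106) without Day 13 in vitro replicate 3 and -0.05 without replicates 1 and 2, with 1 array of that group left. At Day 13, in vitro minus in vivo was 0.75 ± 0.27 (adjusted p = 0.225), and 1.08 (adjusted p = 0.00855) without the same replicate 3. The difference of its day effect between origins, 0.75 ± 0.38 (adjusted p = 0.569), likewise passed only there among the single arrays left out, at 1.08 (adjusted p = 0.0448).

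The third B2M probe set derives from the same accession as the second. It ranged from 10.07 to 11.06 in Day 13 in vitro conceptuses, from 10.43 to 10.79 in Day 13 in vivo conceptuses, from 9.91 to 10.62 in Day 7 in vitro blastocysts and from 10.42 to 10.79 in Day 7 in vivo blastocysts. The ranges of all 4 groups overlapped, and none of its differences was called. Across the 12 arrays the pairs of B2M probe sets correlated at r = 0.444, 0.149 and 0.516, and each of the 3 correlated with BOLA at -0.281, -0.448 and -0.169. These correlations describe arrays that share groups and normalization, and carry no test.

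TAP1, a subunit of the peptide transporter, differed little between the groups. Its levels were 5.81, 6.31 and 5.81 in Day 13 in vitro conceptuses, 6.01, 6.41 and 6.01 in Day 13 in vivo conceptuses, 6.16, 6.01 and 6.14 in Day 7 in vitro blastocysts and 6.01, 6.01 and 5.97 in Day 7 in vivo blastocysts. On 5 of the 12 arrays it stood at 1 value, to within 0.01. Of the 8599 probe sets above background on every array, 860 (10%) had 5 or more arrays at one value, so the deposited values carry steps that hide small differences. The difference of Day 13 minus Day 7 was -0.13 ± 0.15 in vitro and 0.15 ± 0.15 in vivo, and in vitro minus in vivo was -0.17 ± 0.15 at Day 13 and 0.10 ± 0.15 at Day 7, none of them called.

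PSMB9, an interferon-inducible catalytic subunit of the immunoproteasome, was lower at Day 13 within both origins, short of the threshold. It had 4.47, 5.38 and 5.25 in Day 13 in vitro conceptuses, 5.44, 6.19 and 4.89 in Day 13 in vivo conceptuses, 6.56, 6.08 and 7.29 in Day 7 in vitro blastocysts and 6.44, 6.38 and 6.51 in Day 7 in vivo blastocysts. Within each origin, all Day 13 pools lay below all Day 7 pools. The difference was -1.61 ± 0.41 in vitro (limma, adjusted p = 0.0506) and -0.94 ± 0.41 in vivo (adjusted p = 0.354). It was called in vitro without Day 7 in vitro replicate 2 (-1.89, adjusted p = 0.0441), and in both origins after ribosomal centring, at -1.54 in vitro (adjusted p = 0.00717) and -1.33 in vivo (adjusted p = 0.0205). With the poly-A level as a covariate the in vitro difference was -0.92 (adjusted p = 1), and the adjusted p rose to as much as 0.180 when single arrays were left out. The day effect did not pass as different between the origins (-0.67 ± 0.58, adjusted p = 0.733), nor did the origins at Day 13 (-0.47 ± 0.41, adjusted p = 0.658).

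Counted without a test, groups did not overlap for 1 or 2 of the 6 members above background in each comparison. With so few members this cannot be set apart from the shares over the array, which also take in dim probe sets. Between Day 13 and Day 7 in vitro, 2 did not overlap (BOLA and PSMB9, both lower), where 34.1% of the 15127 probe sets that varied by more than 0.01 did not, 16.5% higher and 17.6% lower. In vivo, 2 did not overlap (PSMB9 and the first B2M probe set, both lower), where 21.1% of 17133 did not, 9.37% higher and 11.7% lower. Between the origins at Day 13, 2 did not overlap (BOLA lower and the first B2M probe set higher in vitro), where 21.8% of 16179 did not, 13% higher and 8.88% lower. At Day 7, BOLA alone did not overlap, where 13.9% of 15969 did not, 8.37% higher and 5.58% lower. The member medians of the 4 differences were 0.17, -0.04, -0.05 and 0.05 in this order, beside -0.02, -0.02, 0.08 and 0.06 over all 10591 probe sets above background on at least 3 arrays. In each of the 4 comparisons, 3 members had positive and 3 had negative differences.

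Further probe sets on the array match class I genes but are no members. There were 22, of which 20 carried several symbols, so that no gene is named for them. Background was exceeded on every array by 3 of them and on no array by 14, whose highest value was 3.21. None was called in any comparison. The probe set with the highest median of these had levels of 11.41, 11.87 and 10.30 in Day 13 in vitro conceptuses, 9.44, 12.75 and 11.09 in Day 13 in vivo conceptuses, 12.95, 12.64 and 12.77 in Day 7 in vitro blastocysts and 11.06, 11.55 and 11.36 in Day 7 in vivo blastocysts. The Day 7 in vitro pools were its most even group, above both the Day 13 in vitro and the Day 7 in vivo pools without overlap. The difference of Day 13 minus Day 7 in vitro was -1.59 ± 0.74 (limma, adjusted p = 0.302), and in vitro minus in vivo at Day 7 was 1.46 ± 0.74 (adjusted p = 0.836). At Day 13, where BOLA was lower in vitro, this probe set differed by 0.10 ± 0.74. Of the other two above background on every array, one ranged from 6.99 to 9.48 over the 12 arrays and was lower in vitro than in vivo at Day 13 without overlap (-0.28 ± 0.45, adjusted p = 1), and the next stood at 6.05 on 11 of them. The single-symbol probe set of BOLA-N ranged from 2.87 to 8.85 with wide spread inside each group. The other single-symbol probe set has its symbol written BoLA, and was no member because letter case was kept in the match. It stood at the lowest value in the table, 2.23, on all 12 arrays.

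**Figure D3:**
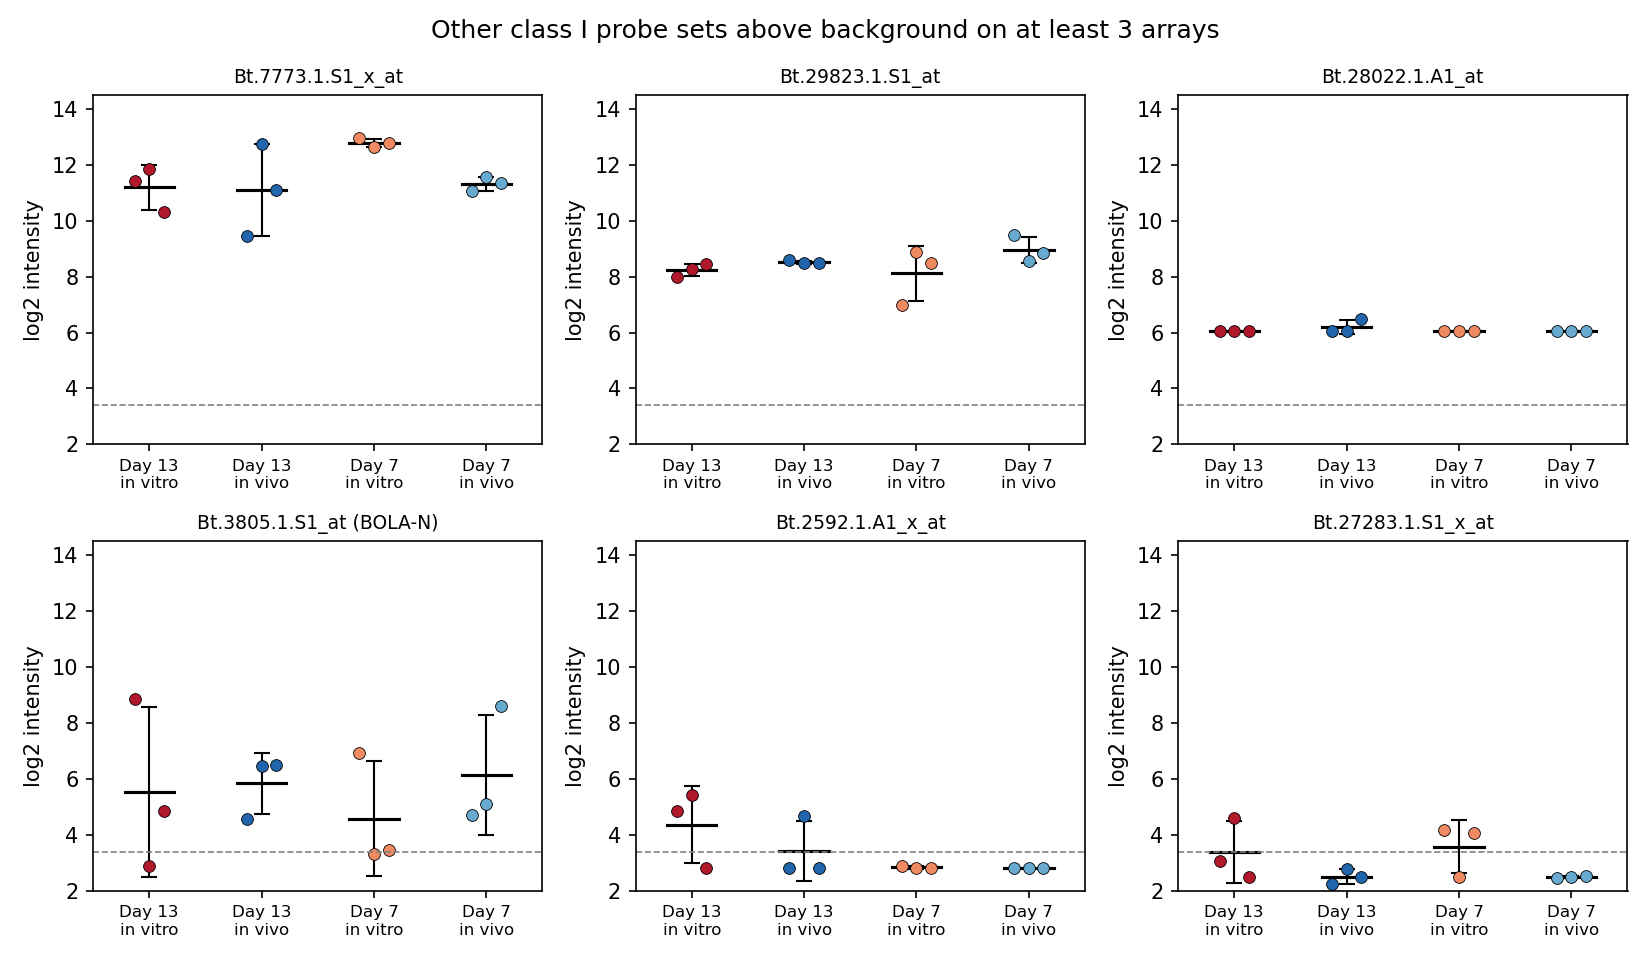
Deposited log2 intensity (vertical axis) of the 6 class I probe sets outside the members that exceeded background on at least 3 arrays, with 1 point per array in the 4 groups, a line at each group mean, whiskers of 1 SD (n = 3) and a dashed line at the background of 3.39. The Day 7 in vitro pools are the highest group in the first panel, and the second panel holds a small step between the Day 13 groups, lower in vitro, without overlap.

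Nearly all class II chains were at background. Of 20 probe sets with a single class II chain symbol, which cover 12 genes, 19 were at background on all arrays, with a highest value of 3.18, and 12 stood at the table's lowest value. The exception was BOLA-DQA2, a class II alpha chain, of which 1 probe set lay between 4.06 and 4.93 with 6 arrays at 1 value, while the remaining 2 probe sets of that gene were at the lowest value. Of the class II processing enzymes, CTSL, LGMN and IFI30 exceeded background on all arrays and CTSS on 1. LGMN, an endosomal protease, fell by 2.87 ± 0.41 on the log2 scale at Day 13 in vitro (limma, adjusted p = 0.00495). IFI30, a lysosomal thiol reductase, rose by 3.63 ± 0.83 in vitro (adjusted p = 0.0348) and by 4.08 ± 0.83 in vivo (adjusted p = 0.0331). Of 14 measured genes on the class II list, these were the called ones, with 1 higher and 1 lower in vitro and 1 higher in vivo. Over the whole array, 5% and 5.77% of all 9155 genes were called higher and lower in vitro and 2.7% and 2.8% in vivo.

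Some genes of a class I peptide loading list rose at Day 13. The list takes in general chaperones of the endoplasmic reticulum, HSPA5 and HSP90B1 among them. The transporter subunit TAP2, CANX (calnexin) and ERAP1 of the same list did not pass the test, and ERAP1 was lower at Day 13. Of 9 measured genes of this list, 4 were higher and 0 lower in vitro, and 1 was higher in vivo. Over all 9155 genes, 5% were called higher and 5.77% lower in vitro, and 2.7% higher in vivo. Among the 7 above background on at least 3 arrays the median difference was 1.64 in vitro and 0.87 in vivo, beside -0.02 and 0.02 over 5803 genes. HSPA5, the chief chaperone of the endoplasmic reticulum, had 15.55, 15.54 and 15.54 in Day 13 in vitro conceptuses, 15.53, 15.02 and 15.36 in Day 13 in vivo conceptuses, 13.77, 13.94 and 13.99 in Day 7 in vitro blastocysts and 13.43, 13.96 and 14.06 in Day 7 in vivo blastocysts. It rose by 1.64 ± 0.18 in vitro (limma, adjusted p = 0.00119) and by 1.49 ± 0.18 in vivo (adjusted p = 0.00269). Of its remaining probe sets, one differed by 6.01 in vitro and 4.27 in vivo and the other stood at the lowest value, so that the size of the change depends on the probe set. The Day 13 in vitro levels of the first probe set agree within 0.01 near the top of the scale, and whether it was saturated was not tested. In vitro, CALR (calreticulin) rose by 5.00 ± 1.12 (adjusted p = 0.0316), PDIA3, the disulphide isomerase of the loading complex, by 1.76 ± 0.39 (0.0303) and HSP90B1, a luminal heat shock protein, by 2.77 ± 0.60 (0.0264). In vivo the differences were 2.25 ± 1.12 for CALR (adjusted p = 0.457), 0.87 ± 0.39 for PDIA3 (0.374) and 2.57 ± 0.60 for HSP90B1 (0.0569), all without overlap of the days and none called. CANX differed by 0.31 ± 0.16 in vitro (adjusted p = 0.349) and 0.06 ± 0.16 in vivo (adjusted p = 1). ERAP1 went the other way, without overlap of the days, by -1.17 ± 0.64 in vitro (limma, adjusted p = 0.424) and -2.75 ± 0.64 in vivo (0.0595). At Day 13 it was 1.74 ± 0.64 higher in vitro than in vivo, also without overlap (0.231). Its Day 13 in vivo replicate 1 was at the lowest value.

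TAP2, the partner of TAP1, had 6.99, 8.23 and 7.07 in Day 13 in vitro conceptuses, 7.54, 8.05 and 6.97 in Day 13 in vivo conceptuses, 8.25, 8.29 and 8.05 in Day 7 in vitro blastocysts and 6.20, 6.34 and 7.54 in Day 7 in vivo blastocysts. It lay higher in vitro at Day 7 without overlap, by 1.51 ± 0.46 (limma, adjusted p = 0.501). In the RefSeq annotation of ARS-UCD2.0, TAP1 lies on chromosome 23 between PSMB8 and PSMB9, with TAP2 separated from PSMB8 by 1 protein-coding gene, and BOLA-DRA, TAPBP and the class I genes are on the same chromosome. B2M is on chromosome 10 and CD74 on chromosome 7. PSMB8 was at background on every array although its neighbours TAP1 and PSMB9 exceeded it on all.

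Of 4 measured genes of the immunoproteasome and its activators, 1 was called, as lower in vitro, where 5.77% of all 9155 genes were. PSME1, a subunit of the proteasome activator PA28, had 6.53, 7.15 and 6.89 in Day 13 in vitro conceptuses and 9.03, 8.27 and 9.06 in Day 7 in vitro blastocysts, and fell by 1.93 ± 0.43 (limma, adjusted p = 0.0316). PSME2, which pairs with it, did not pass (-0.12 ± 0.84, adjusted p = 1). PSMB10 was at background throughout, and the constitutive subunits PSMB5, PSMB6 and PSMB7 had 0 calls of 3 in every comparison. Of 10 measured regulators, NFYC, a subunit of a promoter-binding factor of MHC genes, was the one called, and fell by 1.83 ± 0.31 in vitro (adjusted p = 0.0102). Neither 1 call of 4 nor 1 of 10 can be set apart from the share over all genes. NLRC5, CIITA and IRF1 had no probe set of their own symbol alone, and RFX5 exceeded background on 1 array.

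Interferon-stimulated genes were mostly at background on both days. Of 20 measured, 15 were at background on every array, MX1, MX2 and ISG15 among them, as were the receptor genes IFNAR1, IFNAR2 and IFNGR2 and the interferon IFNG. GBP4, a guanylate-binding protein, was the 1 called of 20, as lower at Day 13 in both origins. Over all 9155 genes, 5.77% were called lower in vitro and 2.8% in vivo. With so few genes, 1 call of 20 cannot be set apart from these shares. GBP4 had 2.49, 2.96 and 3.0 in Day 13 in vitro conceptuses and 2.96, 3.0 and 2.49 in Day 13 in vivo conceptuses. At Day 7 it had 4.81, 5.38 and 5.04 in the in vitro blastocysts and 7.39, 6.68 and 5.58 in the in vivo blastocysts. All Day 13 arrays were at background, and the Day 13 level was at least 3.22-fold lower in vitro (limma, adjusted p = 0.0141) and at least 8.94-fold lower in vivo (adjusted p = 0.00201). The summed linear signal of the interferon-stimulated list was lowest in Day 13 in vitro pools, as BOLA was, at 158.5 to 166.2. It was 173.2 to 280.2 in Day 13 in vivo pools. At Day 7 it was 193.4 to 220.5 in vitro and 200.8 to 350.2 in vivo. Only 3 of the 20 genes exceeded background on at least 3 arrays, and the part of this list in the BOLA result was not tested. The probe set of IFNT2, an interferon tau of the trophoblast, ranged from 10.89 to 13.80 in Day 13 in vitro conceptuses, from 8.41 to 9.98 in Day 13 in vivo conceptuses, from 9.82 to 10.90 in Day 7 in vitro blastocysts and from 9.24 to 11.40 in Day 7 in vivo blastocysts. No gene of the loading, proteasome, class II, regulator or interferon-stimulated lists was called between the origins at either day, or in the difference of the day effect.

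Several of these calls were lost when any of several single arrays was left out. Leaving out single arrays also moved the in vitro calls over all probe sets from 1804 to between 913 and 2898. CALR, PDIA3, HSP90B1 and IFI30 each lost the in vitro call when replicate 1 or 2 of the Day 13 in vitro pools, or any Day 7 in vitro pool, was left out (limma, adjusted p = 0.0576 to 0.126 over these 4 genes). PSME1 lost it when any one of the Day 13 in vitro pools, or Day 7 in vitro replicate 1 or 3, was left out (0.0511 to 0.121), and GBP4 on omission of Day 13 in vitro replicate 1 (0.0606) or Day 7 in vitro replicate 3 (0.0505). In vivo, IFI30 lost its call without Day 13 in vivo replicate 2 or 3 or Day 7 in vivo replicate 1 or 2 (0.0811 to 0.110). HSPA5, LGMN, NFYC and the in vivo call of GBP4 held whichever single array was left out. Without both Day 13 in vitro arrays of low poly-A level, which leaves 1 array assumed to vary like the other groups, the in vitro differences were 1.64 for HSPA5 (adjusted p = 0.0317), 3.14 for CALR (0.536), 0.76 for PDIA3 (0.124), 1.62 for HSP90B1 (0.511), -1.89 for PSME1 (0.320), -2.11 for LGMN (0.0990), 2.80 for IFI30 (0.541), -1.23 for NFYC (0.194) and -2.08 for GBP4 (0.224). The in vivo difference of IFI30, with all its arrays kept, was 4.08 in that fit (adjusted p = 0.0822).

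**Figure D4:**
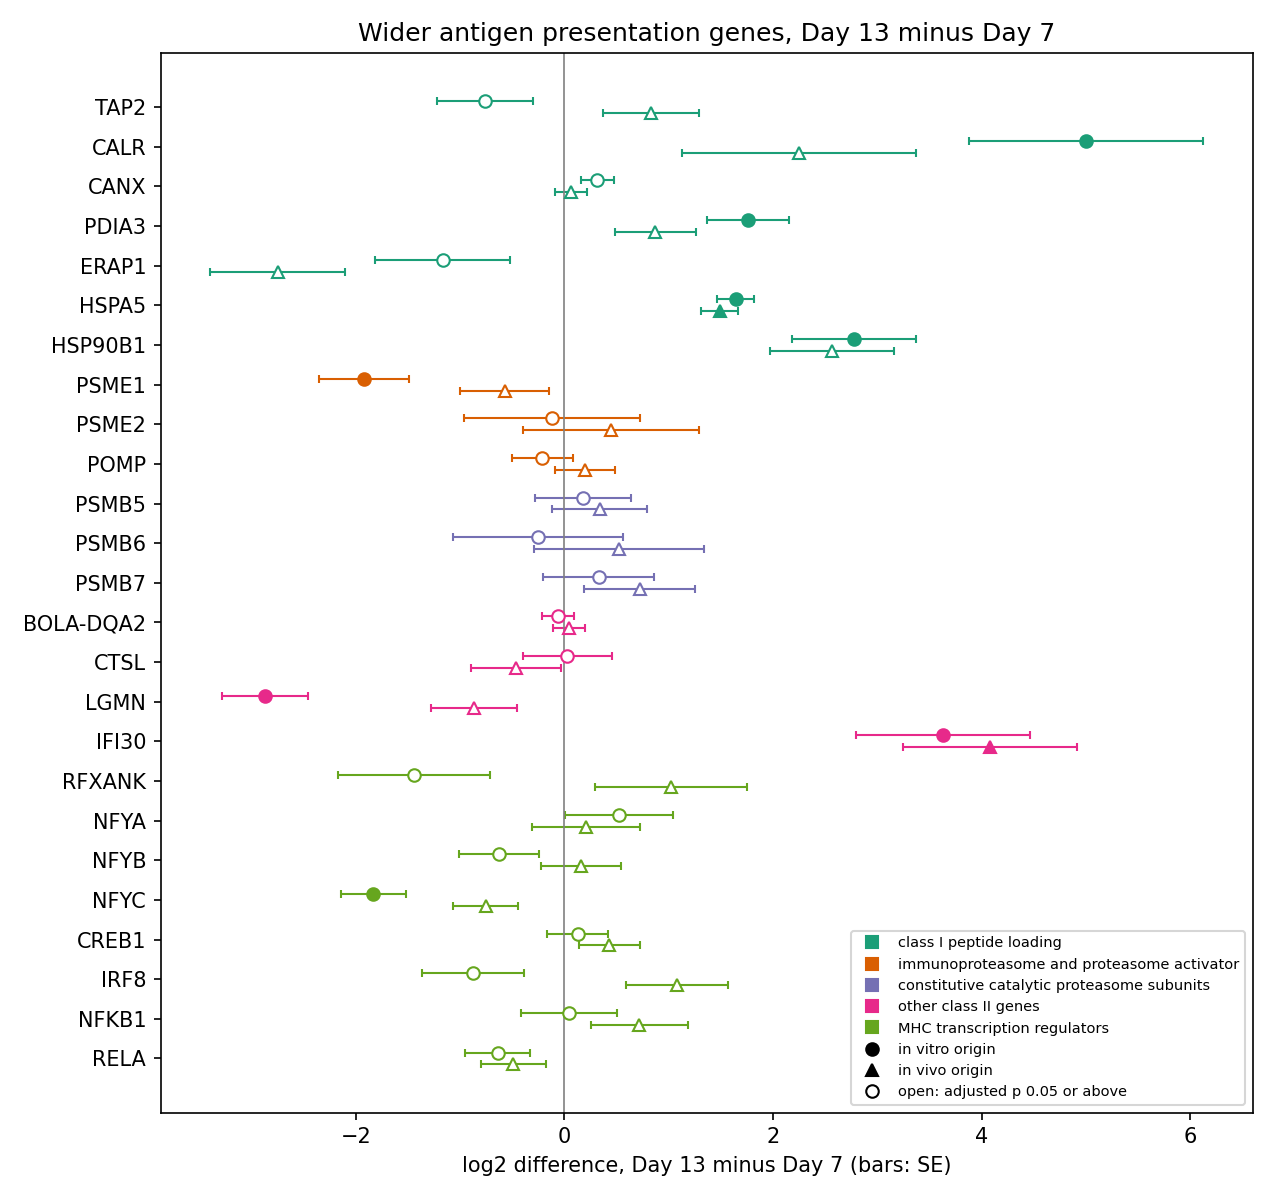
Log2 difference of Day 13 minus Day 7 (horizontal axis) for each gene of the wider antigen presentation lists above background on at least 3 arrays, coloured by list, with circles for in vitro origin, triangles for in vivo origin, bars for the SE and filled symbols for called differences. CALR at 5.00 in vitro lies farthest right, and the regulators lie on both sides of 0.

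Pearson correlation over the 12 arrays was taken with 6845 single-symbol probe sets above background on at least 3 arrays. The levels most like those of BOLA were those of CAPN2 (r = 0.905), XIST (0.884) and PHC1 (0.877). For the first B2M probe set they were MPZL3 (0.954), CPSF2 (0.947) and MTMR6 (0.931), and for TAP1 they were PTPMT1 (0.859), MYBL2 (0.842) and ITGA5 (0.802). These are the highest of many values over arrays of only 4 groups, and are given as a description. XIST had group means of 5.34 in Day 13 in vitro and 9.72 in Day 13 in vivo conceptuses. Its Day 7 means were 9.67 in vitro and 10.99 in vivo. The labels do not give the sex of the embryos in a pool, and its part in the BOLA result was not tested.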

How the data were processed

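RNA from 12 pools of cattle embryos was measured on Affymetrix bovine arrays, 3 pools in each of 4 groups. The authors deposited one normalized log2 intensity per probe set and array, and the submitters' processing notes name RMA, GCRMA and limma with neither versions nor order. Of 24128 probe sets, 112 controls were left out of the tests. Gene symbols came from the platform annotation, in which 13292 tested probe sets had 1 symbol, 86 several and 10638 none, and updated gene names from the RefSeq table of ARS-UCD2.0.

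A model of 4 group means was fitted to all 24016 probe sets with lmFit and eBayes, without a trend, of limma 3.58.1 in R 4.3.3. The 5 contrasts were two-sided. Calls were made below 0.05 after Benjamini-Hochberg adjustment over all probe sets tested. Outside the members, a gene was represented by its probe set with the highest mean. Where all arrays of a group were at background, the fold is a bound computed from the background. The precision rests on 3 arrays a group, and with 8 residual and 0.379 prior degrees of freedom the variances were hardly moderated. p-values measure the spread between pools.

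The members and the 14 wider gene lists were chosen with earlier results of these data known. Named list genes were those called in at least 1 contrast (at most 4 per list and contrast) and a few context genes. TAP2, CANX, ERAP1, CTSS, CTSL, PSME2, PSMB10, BOLA-DQA2, IFNT2 and the receptors were added with their values known. The fit was tested on simulated data. Same-numbered arrays of different groups did not pair: after removal of group means, 3 of 18 pairs correlated above 0.1 and for 0 arrays was the best match in the other groups the one of the same number. Alternatives changed the normalization, scaling, background, filter on dim probe sets, samples in the fit, variance trend, replicate term and spike-in level, and left out arrays. No batch is given in the labels.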

Additional observations from a re-analysis of the deposited data

How the results depend on the processing

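Over all alternatives, 450 values of single member differences were computed, of which 400 kept their direction and their side of the threshold, 6 lost the call, 14 gained one and 30 changed sign, none of these called. The cause of these changes was not tested unless named. In the in vitro day comparison (1 member called) the count was 2 after ribosomal centring, 2 with dim probe sets left out, where fewer tests are adjusted for, 2 with a variance trend, 0 with only the groups compared (fewer arrays, BOLA adjusted p = 0.119), 0 with a replicate block (0.0548), 0 with the poly-A level as a covariate, and 0 to 2 when single arrays were left out. In the in vivo day comparison it was 1 after ribosomal centring in place of 0. Between the origins at Day 13 it was 1 in place of 0 after quantile normalization, with dim probe sets left out, without Day 13 in vitro replicates 1 and 2, and 0 to 1 over single arrays. For the difference of the day effect it was 1 in place of 0 without that pair, and 0 to 1 over single arrays. The replicate block changed no other member's call. With the highest null control (4.59) as background, 5 member probe sets in place of 6 exceeded it on every array. The BOLA difference in vitro ran from -2.54 to -1.72 over all alternatives, with adjusted p from 0.00319 to 0.223.

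Uncalled differences changed sign as follows. Quantile normalization gave -0.24 for the third B2M probe set between origins at Day 13 and -0.0891 for TAP1 at Day 7. Ribosomal centring, which moved the median of all probe sets by 0.07, -0.40, 0.11, -0.35 and 0.46 in the 5 comparisons in the order below, gave in the in vivo day comparison -0.23 for BOLA, -0.34 for the third B2M probe set and -0.25 for TAP1, at Day 7 -0.0225 for BOLA, -0.25 for TAP1 and -0.16 for PSMB9, and 0.19 for the day effect difference of TAP1. With the poly-A covariate, the second B2M probe set was -0.0845 in the in vitro day comparison and -0.0485 between origins at Day 13, the third was -0.15 and -0.63, PSMB9 was 0.31 at Day 13, and the day effect difference of the third B2M probe set was -0.17. Without Day 13 in vitro replicates 1 and 2, the second B2M probe set was -0.0520 and the third -0.17 in vitro, and the third was -0.57 between origins and -0.23 in the day effect difference. Over single arrays left out, the third B2M probe set ran from -0.10 to 0.39 between origins at Day 13 and from -0.0173 to 0.17 in vivo, the second B2M probe set from -0.23 to 0.0518 in vivo and from -0.0993 to 0.18 at Day 7, BOLA from -0.0310 to 0.43 in vivo and PSMB9 from -0.12 to 0.48 at Day 7.

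Over all probe sets, the calls were 1804 in vitro and 911 in vivo between the days, 288 at Day 13 and 50 at Day 7 between the origins, and 96 for the difference of the day effect. Ribosomal centring gave 1538 in vivo, 719 at Day 13 and 151 for the day effect difference. Without dim probe sets they were 2886, 1478, 1215, 81 and 278, and with only the groups compared 787, 241, 0 and 3. The replicate block gave 568 in vivo, 119, 12 and 47, the poly-A covariate 197 in vitro, 9, 29 and 11, and leaving out Day 13 in vitro replicates 1 and 2 gave 902 in vitro, 459, 13 and 424. Leaving out single arrays gave 913 to 2898 in vitro, 135 to 2058 at Day 13, 24 to 116 at Day 7 and 64 to 1083 for the day effect difference, the highest of all but Day 7 without Day 13 in vitro replicate 3. The share of higher calls was 44.8% in vivo, 53.8% at Day 13, 62% at Day 7 and 36.5% for the day effect difference. It was 24.3% in vivo, 44.7% at Day 7 and 61.6% for the day effect difference after ribosomal centring, 43.4% at Day 13 and 50% at Day 7 after quantile normalization, and 70.3% in vitro (47.2% with all arrays), 88.0% at Day 13 and 88.7% for the day effect difference without Day 13 in vitro replicates 1 and 2 (1 array remains). Signal over background limits what can be seen: 3 member probe sets at background give no differences.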
